A study of Drosophila melanogaster with 2 samples.

Results

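Of the 5703 summits on build dm6 kept by the irreproducible discovery rate (IDR), a measure of agreement between replicates, 491 lay at divergent protein-coding promoters, a share of 8.61% (95% Wilson interval 7.909 to 9.366%). A summit belonged to these when it lay within 500 bp of a start of a plus-strand protein-coding gene and within 500 bp of a start of a different, minus-strand protein-coding gene, with the minus-strand start at the lower coordinate, so that both genes point away from the stretch between them. Starts came from Ensembl release 115, and peak strength played no part in the choice. The data were ChIP-seq profiles, taken with an anti-GFP antibody, of whole prepupae of Drosophila melanogaster, the stage at the onset of metamorphosis. The antibody label of both libraries reads CG6854. The 2 libraries, biological replicates numbered 2 and 3, share the labels that describe the animals: strain CG6854-GFP, a transgenic line with GFP at the C terminus of CG6854, both sexes in the pool, age unknown, no treatment named, and sonicated chromatin. They form 1 group, and control DNA libraries were not used here. The labels name CTPsyn as the target, but CG6854 is an earlier symbol of 2 overlapping genes in the annotation, Ctps and CG45071, so the labels do not settle which product carries the tag, and they do not give the promoter that drives it. In whole animals, strong binding in few cells and weak binding in many cannot be told apart.

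Head-to-head gene pairs are common in the compact fly genome, where the starts of both genes often share a short, AT-rich and nucleosome-poor stretch of DNA. Many such promoters serve housekeeping genes and carry the DNA replication-related element (DRE), the site of the factor Dref, or the overlapping sites of the insulator protein BEAF-32, whereas promoters of developmentally regulated genes more often carry repeats bound by GAGA factor. CTP synthase, the target in the labels, makes CTP from UTP in the cytoplasm and forms filaments in many fly tissues; it is known as an enzyme of nucleotide synthesis and not as a DNA-binding factor.

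The windows at the 5 strongest summits at divergent promoters are shown first, because they carried the highest peak scores described further on. Each line gives the pair as minus-strand gene/plus-strand gene, the position on dm6 and the plus strand 5′ to 3′ from the RefSeq copy of that build, and capitals mark the 21 bases centred on the summit. Windows reached 50 bp to either side of the summit and were trimmed to hold at most 30 bases annotated as UTR.
mRpS23/CenG1A at 2L:13835403-13835503: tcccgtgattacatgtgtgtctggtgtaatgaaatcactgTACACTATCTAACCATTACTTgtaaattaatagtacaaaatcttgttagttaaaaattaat
Chro/Ssl1 at 3L:22878884-22878913: ttgccTGTCGATAGCTTTAAACTAACtgca
CG11309/CG7632 at 3L:21304516-21304616: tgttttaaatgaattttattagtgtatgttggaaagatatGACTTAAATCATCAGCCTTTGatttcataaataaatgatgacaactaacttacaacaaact
CG3437/CG3552 at 3L:9457751-9457851: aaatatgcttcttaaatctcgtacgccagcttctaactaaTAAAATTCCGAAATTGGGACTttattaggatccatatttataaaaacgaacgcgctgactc
Art3/mRpS10 at 3R:15229474-15229574: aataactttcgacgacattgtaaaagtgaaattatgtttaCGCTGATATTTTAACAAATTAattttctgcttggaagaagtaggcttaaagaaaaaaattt

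At pairs that hold a cytoplasmic ribosomal protein gene the summit lay at that gene's own start, and 4 such windows are shown for this reason; the set was chosen after its values were seen. Capitals mark the bases from start to start, so that the change of case is the start of the ribosomal protein gene, and lower case is transcribed. At RpS27/Nup37 all 30 bases shown are annotated as UTR, so the capitals there are annotated as transcribed too.
RpS27/Nup37 at 3R:25247457-25247486: aacacggaaaaggaaGTGGGGTAAATCGCA
Dref/RpL13 at 2L:9967265-9967342: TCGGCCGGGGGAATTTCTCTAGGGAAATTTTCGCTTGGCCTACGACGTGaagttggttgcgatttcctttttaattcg
RpS25/CG4820 at 3R:11216249-11216349: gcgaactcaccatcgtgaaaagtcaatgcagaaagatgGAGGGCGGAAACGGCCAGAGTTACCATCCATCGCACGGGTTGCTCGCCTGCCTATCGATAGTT
Rok/RpS19a at X:16637852-16637923: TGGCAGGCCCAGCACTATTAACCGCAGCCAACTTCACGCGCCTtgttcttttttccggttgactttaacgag

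Sites that differed in frequency between divergent and other promoters are shown in 3 further windows, picked after their values were seen. Capitals mark a DRE (TATCGATA) in the first pair of lines and, in the last line, a GAGA repeat (GAGAGAG, here read from the minus strand).
CG14817/CG14805 at X:1877271-1877346: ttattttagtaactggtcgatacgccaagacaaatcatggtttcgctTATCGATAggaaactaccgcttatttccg
RpL34a/Trmt61 at 3R:26059417-26059517: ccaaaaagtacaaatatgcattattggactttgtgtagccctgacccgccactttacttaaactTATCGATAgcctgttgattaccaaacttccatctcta
Pop4/nmo at 3L:7979021-7979075: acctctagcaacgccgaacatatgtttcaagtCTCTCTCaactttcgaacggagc

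The 491 summits were 17.97% (16.58 to 19.46%) of the 2732 summits within 500 bp of a protein-coding start. The remaining 2241 of those are called other promoter summits here, and 2971 summits lay farther out. By arm, divergent promoters held 56 summits on X, 107 on 2L, 96 on 2R, 109 on 3L and 123 on 3R. Chromosome 4 held none of them and 21 IDR summits in all. Of its 11 annotated divergent pairs 0 had a summit, with an upper limit of 25.88%, which covers the 19.05% of all such pairs. The share of pairs with a summit was 14.39% on X (58 of 403), 20.63% on 2L, 18.05% on 2R, 21.43% on 3L and 19.91% on 3R. The summits fell on 464 distinct gene pairs when each was given to its nearest pair, and 439 of these pairs had 1 summit, 23 had 2 and 2 had 3. These pairs named 927 genes, which is 6.65% of all protein-coding genes and 18.3% of the genes that have a divergent partner. More than 1 pair qualified at 25 summits, most of all at mod(mdg4), the locus of an insulator protein. The annotation lists separate protein-coding genes on both strands there, among them pre-mod(mdg4)-E and pre-mod(mdg4)-Y. At this locus 21 pairs qualified for 1 summit with a signal of 449.2.

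The annotation holds 2667 pairs of protein-coding genes whose divergent starts lie at most 1000 bp apart, and 508 of them had an IDR summit within 500 bp of both starts (19.05%, 17.6 to 20.58%). The count of pairs exceeds 464 because a summit can serve several pairs. When each replicate was represented by its own 5703 strongest summits, 521 pairs were bound in replicate 2 (19.54%) and 486 in replicate 3 (18.22%). Of the 508 pairs, 350 were bound in both replicates (68.9%), 429 in replicate 2 and 422 in replicate 3, and 7 in neither. On the relaxed pooled list of 30000 peaks 1344 pairs were bound (50.39%), and 1323 pairs had no summit even there.

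A gene with a divergent partner was bound more often than a gene without a divergent partner. Counting a summit within 500 bp of any start, 1432 of 5052 divergent genes were bound (28.35%, 27.12 to 29.6%), against 1353 of 8893 other protein-coding genes (15.21%, 14.48 to 15.98%). Over all protein-coding genes the share was 20% on the IDR list, 20.5% in replicate 2 and 19.1% in replicate 3. In replicate 2 the shares were 29.24% for divergent genes and 15.5% for other genes, and in replicate 3 they were 26.68% for divergent genes and 14.72% for other genes. The same order held on the relaxed pooled list, with 69.4% for divergent genes and 36.05% for other genes. Divergent genes had slightly more annotated starts, with a mean of 1.47 per gene against 1.37. A summit can also count for a divergent gene while sitting at its partner, and such double counting was not removed. Leaving out the starts that face no partner left 26.13% of divergent genes bound. That setting still counted summits at the partner within 500 bp and did not change the other genes. No test was run on this difference, since neighbouring genes share summits and are not independent.

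Pairs with close starts were bound more often than pairs with distant starts. With the upper limit of each class included, pairs 0 to 100 bp apart were bound in 28.21% of cases (121 of 429), pairs 100 to 200 bp apart in 19.89%, pairs 200 to 300 bp apart in 27.86% and pairs 300 to 400 bp apart in 27.25%. The share was lower in wider pairs, at 14.23% for 400 to 500 bp, 6.25% for 500 to 600 bp, 1.845% for 600 to 800 bp and 0 of 193 pairs for 800 to 1000 bp (upper limit 1.952%). A geometric limit moves with this order: the stretch within 500 bp of both starts had a median of 944 bp in the tightest class and 104 bp in the widest, and its part in the decline was not tested. The lower share at 100 to 200 bp (interval 16.08 to 24.34%) does not follow that limit; its interval touched that of the 200 to 300 bp class (24.25 to 31.78%). It was present in replicate 2 (20.45%) and in replicate 3 (17.09%), where the 200 to 300 bp class had 27.86% and 27.31%. Pairs are not independent in these shares, since a summit can serve several, as at mod(mdg4), where 21 pairs qualified. In the tightest class the 121 bound pairs stood beside 87 summits given to their nearest pair. The shares were not computed without mod(mdg4). Bound pairs had a median distance between starts of 248.5 bp, against 330 bp for pairs that were not bound. This order turned round, to 319 bp for bound and 288 bp for other pairs, when a summit near either start sufficed.

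**Figure D1:**
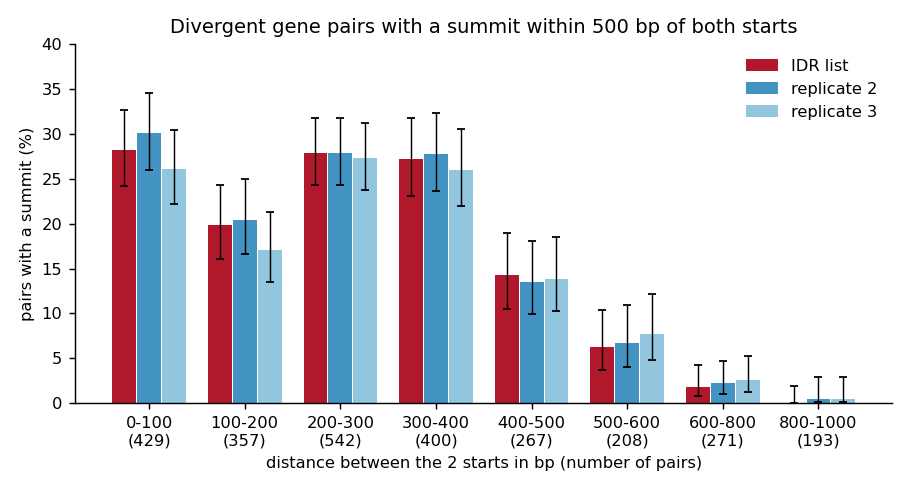
Share of annotated divergent gene pairs with a summit within 500 bp of both starts (y axis, %), by the distance between the starts (x axis, bp, with the number of pairs), for the IDR list and each replicate's strongest 5703 summits; bars carry 95% Wilson intervals. The IDR bars stand at 28.21% for 0 to 100 bp, 19.89% for 100 to 200 bp and 27.86% for 200 to 300 bp, and fall to 0 beyond 800 bp.

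The position of the summits within their pairs was examined next. The distance between starts ran from 8 to 652 bp among the 491 summits, with a median of 269 bp. The nearer start of the pair was a median of 75 bp away and the farther start 260 bp. Counting any protein-coding start, the nearest was a median of 73 bp from summits at divergent promoters and 113 bp from other promoter summits. Summits within 50 bp of a start made up 36.86% at divergent promoters (32.71 to 41.22%) and 27.62% at other promoters (25.81 to 29.51%). A divergent pair offers a start on either side, and the part of this in the difference was not tested.

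The summit lay between both starts in 246 of 491 cases (50.1%, 45.7 to 54.51%). In a further 212 cases (43.18%) it lay in a 5′ UTR of a gene of the pair, in 23 in an intron and in 10 in a coding exon. The eligible stretch of a pair is every base within 500 bp of both starts, and the part of it between the starts averaged 39.9% over these summits. Where the starts are more than 500 bp apart, the whole eligible stretch lies between them. The place was thus fixed by the rule for 16 summits in pairs 500 to 600 bp apart and 11 in pairs 600 to 800 bp apart. These count among the 246. The 2 replicates differed here: 44.2% of the summits on replicate 2's own list lay between the starts (39.91 to 48.58%) and 57.02% of those on replicate 3's own list (52.51 to 61.42%). At the 444 IDR summits matched in both replicates within 100 bp the shares were 48.42% by the replicate 2 summit and 50.45% by the replicate 3 summit. The matched summits of the 2 replicates lay a median of 25 bp apart, with 9 in 10 at most 77 bp apart, and both replicates named the same nearer start at 407 of the 444 (91.67%). The position of a single summit is therefore not resolved below about this distance. Summits were nearer the minus-strand start in 221 cases and nearer the plus-strand start in 268, with 2 ties.

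The place of the summit varied with the distance between the starts. In pairs at most 100 bp apart 17.24% of 87 summits lay between the starts, which make up 6.44% of the eligible stretch, and the nearer start was a median of 49 bp away. In pairs 100 to 200 bp apart 32.31% of 65 summits lay between the starts, which make up 16.1% of the stretch. Within 50 bp of the midpoint lay 24 summits (27.59%) of the first class and 13 (20%) of the second. Of the 144 summits in pairs 200 to 300 bp apart, 60.42% lay between the starts, which make up 34% of the eligible stretch there, and 52 (36.11%) lay within 50 bp of the midpoint. In pairs 300 to 400 bp apart 43.86% lay between the starts, which make up 53.1% of the eligible stretch, and 12 of 114 lay within 50 bp of the midpoint. On the IDR list the share between the starts was thus above their part of the stretch in the 3 tighter classes. It was below that part at 300 to 400 bp (interval 35.1 to 53.02%). In pairs 400 to 500 bp apart 85.19% of 54 summits lay between the starts, which make up 80.4% of the stretch (interval 73.4 to 92.3%). The replicate lists had 54.79% between the starts for 200 to 300 bp and 42.34% for 300 to 400 bp in replicate 2, and 65.1% and 54.95% in replicate 3. At 300 to 400 bp the replicates thus lay on either side of the 53.1% found for the IDR summits.

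**Figure D2:**
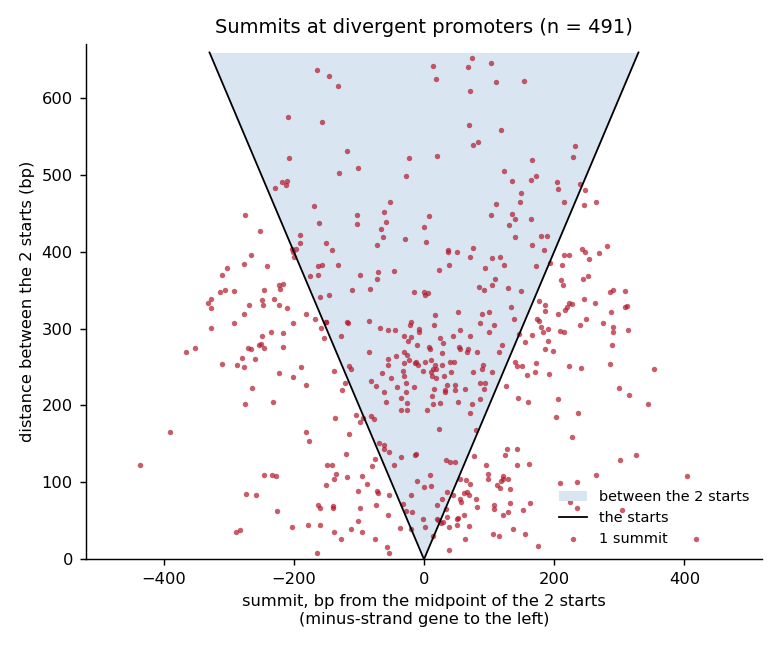
Position of each of the 491 summits relative to the midpoint of its pair (x axis, bp, minus-strand gene to the left) against the distance between the starts (y axis, bp); lines mark the starts and the shaded wedge the stretch between them. Summits gather near the midpoint where the starts are 200 to 300 bp apart, and at 300 to 400 bp 43.86% lie inside the wedge and the others outside it.

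Summits at divergent promoters ranked close to other promoter summits in signal. The signal is the authors' score for a peak; its scale is not stated, so it ranks peaks within a list only. It ran from 136.7 to 1767 at divergent promoters, with a median of 203.5, and from 136.3 to 2488 at other promoter summits, with a median of 205.7. The median rank on the IDR list was 2758 for divergent promoters and 2700 for other promoter summits, where rank 1 is the strongest. The replicates put the groups in opposite orders: at matched summits the median rank in replicate 2 was 2902 for divergent and 2501.5 for other promoters, and in replicate 3 it was 2610.5 for divergent and 2937 for other promoters. The difference in rank was thus within the spread between replicates. The strongest 570 summits of the IDR list nevertheless held 72 of the 491 at divergent promoters (14.66%, 11.81 to 18.07%) and 233 of the 2241 other promoter summits (10.4%, 9.2 to 11.73%). Signal was almost unrelated to the distance between starts (Spearman's rho 0.087 over 491 summits, given as a description).

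The IDR list keeps peaks for their agreement between replicates, so a match in either replicate is part of the selection. A summit within 100 bp was present in replicate 2 for 94.7% of the 491, beside 95.4% of other promoter summits and 95.42% of summits farther out, and in replicate 3 for 95.72%, beside 95.72% and 96.13%. Over the 444 matched in both, Spearman's rho between the 2 signals was 0.603, beside 0.609 for 2049 other promoter summits; each point is a summit, all from the same 2 libraries. Of the 491 summits, 308 (62.73%) were matched among the 5703 strongest of both replicates, against 65.82% of other promoter summits, and 9 were among the strongest of neither. Ranks differed most at AGO1/mRpL53, with rank 28818 in replicate 2 and 2455 in replicate 3, at Psf3/flw, with 26254 in replicate 2 and 4576 in replicate 3, and at Jupiter/CG14710, with 25172 in replicate 2 and 3737 in replicate 3. All of these were weak in replicate 2.

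**Figure D3:**
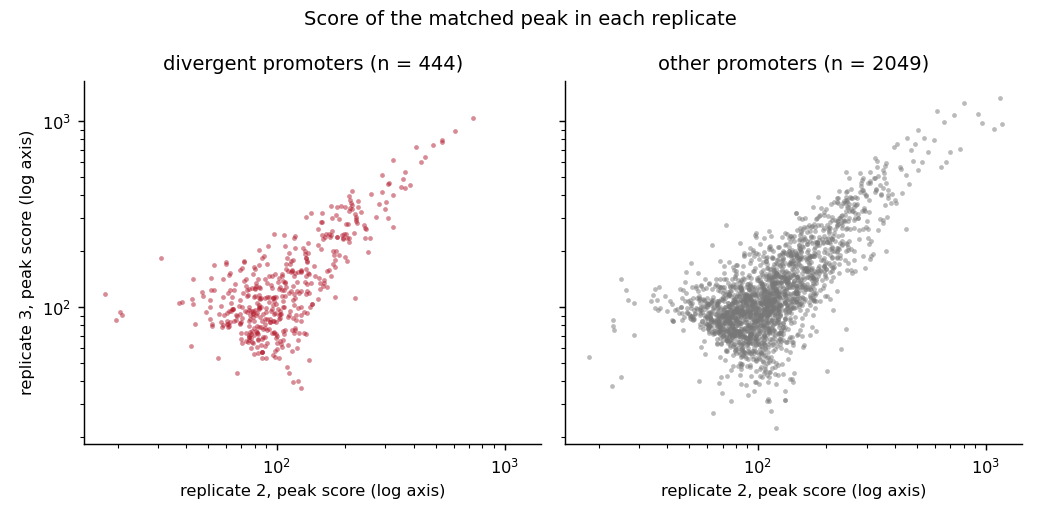
Signal of the matched peak in replicate 2 (x axis, the authors' score, log axis) against replicate 3 (y axis, same unit, log axis), one point a summit, for 444 summits at divergent promoters (left) and 2049 other promoter summits (right). Both clouds rise together, with Spearman's rho of 0.603 for divergent promoters and 0.609 for other promoters, and widen at low scores.

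The strongest summit lay at 2L:13835453 between mRpS23, a protein of the mitochondrial small ribosomal subunit, and CenG1A, an Arf GTPase-activating protein. It scored 1767 on the IDR list, 730.4 in replicate 2 and 1040 in replicate 3, and sat 111 bp from the CenG1A start. The next lay 85 bp inside Chro, which encodes the chromodomain protein Chromator, opposite Ssl1, a subunit of the general transcription factor TFIIH, and scored 1493, with 606.4 in replicate 2 and 882.1 in replicate 3. Both led the divergent promoters in each replicate.

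A summit at CG11309/CG7632 followed with 1319, with 529.0 in replicate 2 and 789.4 in replicate 3. CG3437/CG3552 had 1304, with 533.3 in replicate 2 and 771.6 in replicate 3. Art3, an arginine methyltransferase gene, and mRpS10, another mitochondrial ribosomal protein gene, shared a summit of 1234, with 486.0 in replicate 2 and 746.3 in replicate 3. At CG3437/CG3552 and Art3/mRpS10 the summit lay near the middle, 132 bp and 116 bp from the minus-strand start in stretches of 243 bp and 257 bp.

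The rest of the 20 strongest ran down to 700.7 at Ns2/POSH. They included Tcs5/CHMP2B (1144), where CHMP2B belongs to the ESCRT-III membrane-scission complex, and Fbw5/CG9147 (1095), CG13390/CG17294 (1027), Pdrg1/Pal1 (947.2) and CG8372/CG8360 (895.7). Next came eIF4EHP/CG18428 (845.9), where eIF4EHP is a cap-binding repressor of translation, and RpS27/Nup37 (840.4), a ribosomal protein and a nuclear pore protein. Acbp1/Piezo (797.8) pairs an acyl-CoA-binding protein with a mechanosensitive channel, Stt3A/bves (795.3) includes a subunit of the oligosaccharyltransferase, and Lon/PIG-F (772.3) a mitochondrial protease and an enzyme of GPI-anchor synthesis. CG5757/CG5098 (757.8), CG7601/CIA30 (721.6) and CG10747/Pyroxd1 (717.2) came after them. At CG7601/CIA30 the nearest replicate 3 summit lay 125 bp away, beyond the 100 bp allowed for a match, and each of the other 19 was matched in both replicates. In 14 of the 20 the summit lay between the starts, beside 50.1% of all 491. The rule left no other place at Acbp1/Piezo, Stt3A/bves and CG5757/CG5098, whose starts were 621, 609 and 505 bp apart.

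Some pairs stood at the extremes of the rule. The tightest were SerRS/CG17260 and CG9588/Lkb1 with starts 8 bp apart, CG9921/Dsp1 with 12 bp, E(z)/Cnep1r2 with 16 bp and CG12213/GC1 with 17 bp. SerRS, a seryl-tRNA synthetase, scored 252.5 (136.4 in replicate 2, 122.6 in replicate 3), and E(z), the histone methyltransferase of Polycomb complex PRC2, had 430.8 (195.2 in replicate 2, 232.6 in replicate 3). The widest was Fer1HCH/Fer2LCH with 652 bp, the heavy and light chains of the iron store ferritin, at a signal of 503.9 (246.0 in replicate 2, 263.2 in replicate 3). It was followed by dpr14/spidey with 645 bp, yin/CG2930 with 642 bp, Hr3/Hdc with 640 bp and drk/mars with 636 bp. Just inside the 500 bp limit were Ubc10/CG5033 and Mpc1/CG42613 with the farther start at 500 bp and signals of 152.0 and 185.4, and Evi5/HP5 at 499 bp with 161.8. Just outside were spirit/CG12065 and CG43102/pasi1 at 502 bp with 155.1 and 218.6, and Toll-9/in at 503 bp with 195.3.

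Of the 25 pairs with several summits, most had their outer summits about 200 bp apart (median 206 bp, lowest 199 bp). No neighbouring summits anywhere on the IDR list were closer than 199 bp, so a spacing near this value is the list's own limit. Elp6/Dic1 had summits with signals of 608.3 and 538.9 in 1 stretch of 350 bp and another of 169.2 at a different pair of starts. Its summit of 608.3 had no match within 100 bp in replicate 2. The pair p38a/CG6178, which includes a stress-activated kinase gene, had 580.1, 368.9 and 181.4. A summit inside each gene body was found in 3 of the 25 pairs.

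Cytoplasmic ribosomal protein genes had the highest share among the 18 gene lists examined. Of 92 listed genes 55 have a divergent partner, and 29 were in a pair with a summit, which is 52.7% of those with a partner beside 18.3% of all genes with a partner. The count was 29 in each replicate list as well, 12 with a window of 250 bp and 49 with 1000 bp. Ribosomal protein genes were bound with or without a partner: 77 of the 92 had a summit within 500 bp of a start (83.7%, beside 20% of all protein-coding genes). The lists here were drawn up with earlier results of these data known, and no test was made over them.

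At ribosomal protein pairs the summit took one side. Taking the strongest summit of each of the 29 genes, 28 lay nearer the ribosomal protein start, all 28 at most 58 bp from it, with a median over the 29 of 23 bp to that start and 300 bp to the partner's. The 58 bp is the largest of those 28 distances and so was taken from these data. Over both genes of all 491 summits, the farther start included, 213 of 982 starts lay that close (21.69%). Again 28 of 29 lay nearer the ribosomal protein start on the list of replicate 2, with medians of 17 bp and 296 bp, and on that of replicate 3, with medians of 21 bp and 304 bp. Ribosomal protein genes bound outside these pairs, 48 in number, also had their strongest summit at a median of 29 bp. The exception among the 29 was RpL7-like, a paralogue of RpL7, whose summit lay 330 bp away and 11 bp from the start of JhI-21.

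RpS27, paired with the nuclear pore gene Nup37, had the strongest of these summits with 840.4 (358.1 in replicate 2, 490.7 in replicate 3), 11 bp from its start. RpL13, opposite Dref, had 664.0 (301.2 in replicate 2, 366.6 in replicate 3) at 2 bp, and RpS25 had 637.7 (299.97 in replicate 2, 335.6 in replicate 3) at 12 bp. RpS19a, 480 bp from the start of the Rok gene, had 598.1 (309.1 in replicate 2, 302.5 in replicate 3) at 8 bp. The median over the 29 strongest summits was 438.3, with a range of 197.8 to 840.4, beside 203.5 for all divergent promoters. Weaker second summits lay on the partner's side at RpL34a, RpL34b and RpS25, 20 to 35 bp from the partner start and with signals between 187.9 and 256.6.

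Mitochondrial ribosomal protein genes did not show this placement. Of 73 listed genes 58 have a divergent partner and 13 were in a pair with a summit (22.4% of those with a partner, beside 18.3% of all genes with a partner). The summit was nearer the mitochondrial ribosomal protein start in 3 pairs and nearer the partner's in 10, with a median of 174 bp to the listed gene and 85 bp to the partner. Their signals ran from 137.0 at the weakest, that of mRpL28, to the 1767 of mRpS23/CenG1A, and mRpL23/CG9004 had 538.8 and mRpL24/betaggt-I 355.2.

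**Figure D4:**
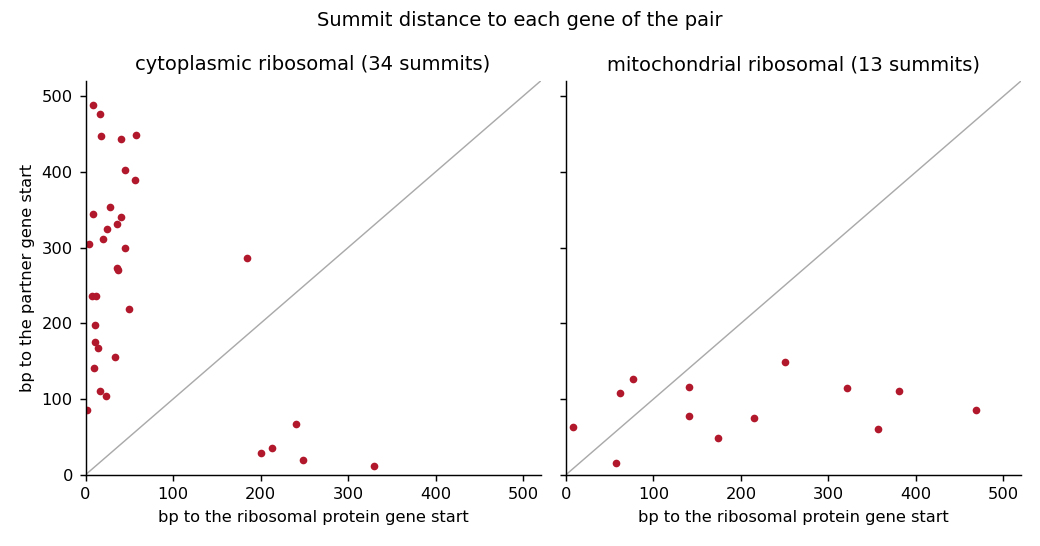
Distance from the summit to the start of the ribosomal protein gene (x axis, bp) and to the start of its partner (y axis, bp) for 34 summits at cytoplasmic (left) and 13 at mitochondrial (right) ribosomal protein pairs; the line marks equal distance. On the left 28 summits stand within 58 bp of the ribosomal protein start, and on the right 10 of 13 lie below the line, nearer the partner.

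Genes for chromatin and insulator proteins were few but included some of the strongest summits. Of 22 listed genes 13 have a divergent partner and 5 were in a pair with a summit (38.5% of those with a partner, beside 18.3% of all genes with a partner). Besides Chro/Ssl1 (1493), Dref/RpL13 (664.0) and E(z)/Cnep1r2 (430.8) these were Cp190/CG4338 with 524.5 (240.6 in replicate 2, 276.0 in replicate 3), where Cp190 is a shared cofactor of insulator complexes, and M1BP/CG8202 with 278.9 (110.1 in replicate 2, 171.3 in replicate 3), where M1BP binds the core-promoter element called motif 1. A second summit at Dref/RpL13 had 167.1, below the median of 203.5 for divergent promoters. The summit was nearer the partner in 4 of these 6 cases, at 86 bp from Dref and 2 bp from RpL13, at 169 bp from Cp190 and 112 bp from CG4338, at 314 bp from M1BP and 79 bp from CG8202, and at the second Dref/RpL13 summit.

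DNA replication genes were in such pairs in 5 of 21 cases (33.3% of the 15 with a partner, beside 18.3% of all genes with a partner). Among them were bur/Mcm10 at 167.7, Psf3/flw at 161.6 and Sld5/CG14543 at 150.6, all below the median of divergent promoters. RPA1/Mcm2, a pair in which both genes act in replication, had 184.9, so that 1 summit counted for both genes. Taf10b/Taf10, which encode related subunits of TFIID and SAGA, and Hsp67Bc/Hsp22, both small heat shock protein genes, also had both genes on 1 list, with signals of 179.4 and 153.4. For vacuolar ATPase genes the count was 4 of 33 (28.6% of those with a partner), led by Vha100-2/Vti1b with 507.0, and for autophagy genes 4 of 20 (25%), led by Atg4b/Hibch with 312.8. The shares for replication, vacuolar ATPase and autophagy genes rest on 4 or 5 genes each, and their difference from 18.3% was not tested.

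Shares in the groups that remain ran from 12.5% to 23.5%, beside 18.3% of all genes with a partner. Oxidative phosphorylation genes were at 15.9% (7 genes, with ND-ASHI/Fum1 the strongest at 584.6), translation factors at 15.4% (4 genes, with eIF3a/CG1074 at 351.6 after eIF4EHP and eIF1), the proteasome at 15.4% (4 genes, RanBP3/Rpt5 the strongest at 198.6), RNA polymerase and Mediator at 15.8% (6 genes, CG10584/Polr3E the strongest at 431.3) and aminoacyl-tRNA synthetases at 17.4% (4 genes). Ubiquitin genes were at 20% (4 genes, led by Uba2/Cds at 217.7), general transcription factors at 23.5% (4 genes), heat shock proteins and chaperones at 17.6% (3 genes, Hsc70-5/CG8531 the strongest at 204.6) and mitochondrial import at 16.7% (1 gene, Tom7, at 171.6). Ecdysone response genes were bound in 18 of 19 cases (94.7%, beside 20% of all protein-coding genes), while 5 have a partner and 1, Hr3, was in a pair with a summit (20% of those with a partner; Hr3/Hdc, 236.6). Of 16 stress and redox genes 11 were bound (68.8%), 6 have a partner and 1 (16.7% of the 6), Gclm, the modifier subunit of the enzyme that starts glutathione synthesis, was in such a pair (Gclm/CG17625, 269.4). Of 15 genes of nucleotide and lipid synthesis 10 were bound (66.7%), 8 have a partner and 1 (12.5% of the 8), Pcyt1, of phosphatidylcholine synthesis, was in such a pair (CG32313/Pcyt1, 192.1). Neither Ctps nor CG45071 belongs to a divergent pair, and no summit of this kind lay within 1000 bp of either.

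The DNA at the summits differed from that at other promoters. In windows of 50 bp to either side the GC content was 40.1% at divergent promoters, beside 48.3% in windows 500 bp to either side, and 45.5% at other promoter summits, beside 40.8% to either side. The lower value came with position in the pair: summits between the starts had 36.1% and those inside a gene 44.1%. The midpoints of divergent pairs had 34.5% when bound and 33.3% when not.

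The DRE, written TATCGATA and sought on both strands, was found in 17 of 491 windows at divergent promoters (3.46%, 2.17 to 5.47%) and in 10 of 2241 at other promoter summits (0.446%, 0.243 to 0.819%). In replicate 2 the shares were 2.2% at divergent and 0.382% at other promoters, and in replicate 3 they were 3.83% at divergent and 0.52% at other promoters. Of the 17 windows, 14 were at summits between the starts. The annotation shows a like order without any binding: 9.03% of 6036 starts that face another gene and 2.4% of 13216 other starts held a DRE in a window of the same length centred on the start, and 4.48% of all 19252 starts. Summits at divergent promoters thus held it less often than starts that face another gene, and other promoter summits less often than other starts. These groups match only in part, since an other promoter summit can lie at a start that faces another gene. The windows also differ, being centred on summits in one case and on starts in the other. The midpoints of pairs held it in 6.1% of bound and 4.59% of unbound pairs, with overlapping intervals. The shorter CGATA, contained in the DRE and typical of BEAF-32 sites, was in 16.1% of windows at divergent promoters and 13.3% at other promoter summits, and in 23.6% of all starts. Starts that face another gene held CGATA in 34.6% of cases and other starts in 18.5%.

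GAGAGAG was rarer at divergent promoters, with 10 of 491 windows (2.04%, 1.11 to 3.71%), against 185 of 2241 at other promoter summits (8.26%, 7.19 to 9.47%). In replicate 2 the shares were 1.6% at divergent and 9.16% at other promoters, and in replicate 3 they were 1.7% at divergent and 7.28% at other promoters. Among annotated starts the difference was small, with 1.28% for starts that face another gene and 1.66% for other starts (1.54% of all starts). The share at divergent promoters was thus near that of all starts, and the share at other promoter summits was above it. It was 8.28% when other promoter summits were limited to the 1462 no farther than 167 bp from a start, the distance that 9 in 10 summits at divergent promoters did not exceed.

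A TATA box, TATAAA, was in 16.1% of windows at divergent promoters (13.1 to 19.6%) and 9.5% at other promoter summits (8.36 to 10.8%), beside 15.5% of all starts and 22.9% of the AT-rich midpoints of unbound pairs. Among annotated starts the order was the opposite, with 13.3% for starts that face another gene and 16.4% for other starts. Base composition moves with the order at the summits, and its part in that order was not tested. Windows with TATAAA had a median signal of 249.8 over 79 summits at divergent promoters, against 198.0 over the 412 without. The core of motif 1, GGTCACAC, was in 1.22% of windows at divergent promoters and 1.03% at other promoter summits, while 8.75% of starts that face another gene and 4.68% of all starts held it. The initiator letters TCAGTT were in 8.96% of windows at divergent promoters and 10.1% at other promoter summits, and in 15.5% of all starts. They were in 9.64% of starts that face another gene and 18.2% of other starts. For the 10 other motifs sought the intervals of divergent and other promoter summits overlapped in all 10. These were the letters GGTATTTT, the E-box written CACGTG, the related letters CATGTG, the AP-1 site written TGANTCA, the site TGATAAG of the serpent family of factors, the site CAGGTAG of Zelda, the cyclic AMP element TGACGTCA, the paired heat shock sites GAANNTTC, a run of AAAAAAA and the NRF1-like motif. A match describes the letters of a window and is not a bound site.

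**Figure D5:**
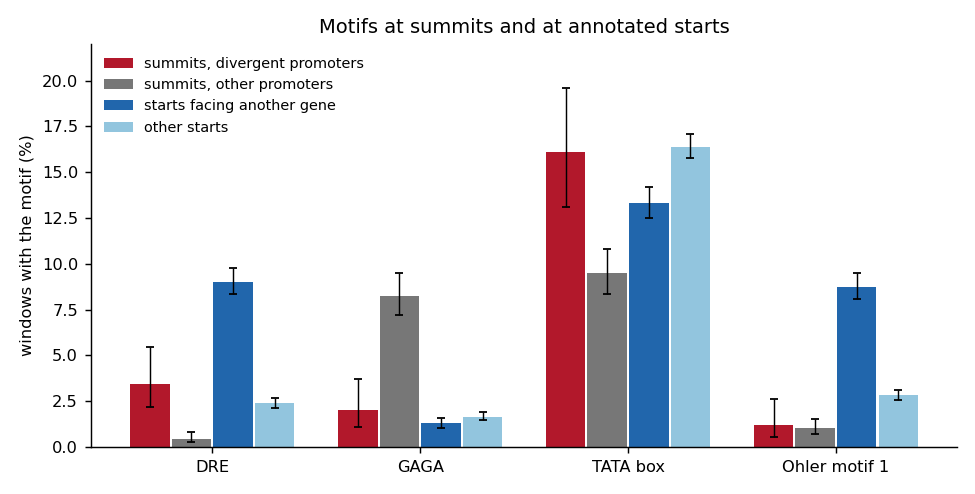
Share of windows (50 bp to either side) that hold each motif on either strand (y axis, %) at 491 summits at divergent promoters, 2241 other promoter summits, 6036 starts that face another gene and 13216 other starts; bars carry 95% Wilson intervals. The DRE stands at 3.46% for divergent and 0.446% for other promoter summits, and GAGA at 2.04% for divergent and 8.26% for other promoter summits.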

How the data were processed

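Peak lists on dm6 were used; the lists on dm3 were not. Per the notes deposited with the files, the authors called relaxed peaks for each replicate and for the pooled alignments against a control alignment, and took from these the peaks that passed the IDR threshold. Neither aligner nor caller is given in the sources used here. Signal is a score the authors deposited with each peak, with no scale stated. Depth is unknown, and each relaxed list ends at 30000 peaks.

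A summit is the peak start plus the deposited offset. Chromosome names and coordinates of dm6 were checked against the reference copy of that build. Protein-coding starts on 6 chromosome arms (19252 positions, 13945 genes, Ensembl release 115) defined promoters within 500 bp. A summit was given to the pair of starts that lay nearest. Replicate summits were matched within 100 bp, and each replicate was also read alone through its 5703 strongest summits. For 16 motifs, windows of 50 bp to either side were searched on both strands; the letters of an NRF1-like motif, found in none of the 491 windows, are not printed.

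All values are descriptions: the libraries form 1 group, no p-value was computed, and 95% Wilson intervals cover counting error only. The members, the 18 gene lists and the motifs were chosen with earlier results of these data known. Named are the genes of the 20 strongest summits, the 5 tightest and 5 widest pairs, the 3 with most unequal replicate ranks, up to 4 per gene list, pairs with most summits and 3 on either side of the 500 bp limit; further genes were named after their values were seen. A few of these are not reported here. Alternatives were windows of 250 and 1000 bp, 1 start per gene, coding transcripts, the stronger 2851 summits, each replicate alone, the relaxed list, other match distances and motif windows of 100 bp to either side. Chosen after seeing the data were counting only the facing start, only summits between the starts, 1 summit per pair, only other promoter summits near a start, and leaving out mod(mdg4). The assignment was tested on simulated positions with planted pairs. Python 3.11.15, pandas 2.3.3, numpy 2.4.6 and scipy 1.17.1 were used.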

Additional observations from a re-analysis of the deposited data

How the results depend on the processing

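The number of summits at divergent promoters, 491, became 238 with a 250 bp window, 897 with 1000 bp and 254 in the stronger 2851 peaks, and was 470 to 500 from either replicate alone. The share of pairs bound, 19.05%, became 13.23% at 250 bp, 24.46% at 1000 bp, 10.31% in the stronger peaks, 50.39% on the relaxed list and 24.41% for pairs at most 500 bp apart (18.22 to 19.54% from 1 replicate). The excess of divergent over other genes bound, 13.13 percentage points, became 8.947 at 250 bp, 15.0 at 1000 bp, 11.3 with 1 start per gene, 6.499 in the stronger peaks, 33.35 on the relaxed list and 10.91 through the facing start, an alternative chosen after seeing the data (11.96 to 13.74 from 1 replicate). The median rank percentile of divergent minus other promoter summits, −1.02, lay between −5.61 (replicate 2 alone) and 4.76 (250 bp) and took either sign; it was 3.638 from replicate 3 alone. The share between the starts became 60.08% at 250 bp and 39.8% at 1000 bp (44.2 to 57.02% from 1 replicate). Bound minus unbound distance between starts, −81.5 bp, ran from −84.0 to −74.0 bp in 1 replicate and reversed to 31.0 bp through either start. The DRE difference, 3.016 points, became 4.827 at 250 bp, 1.773 at 1000 bp, 5.923 in motif windows of 100 bp to either side and 5.245 for summits between the starts, the last chosen after seeing the data (1.818 to 3.31 from 1 replicate). The GAGA difference, −6.219 points, became −3.786 with 1 start per gene and −13.07 in motif windows of 100 bp to either side (−7.556 to −5.579 from 1 replicate). Ribosomal protein genes in bound pairs, 29, were 12 at 250 bp and 49 at 1000 bp. The cause of these changes was not tested, beyond the fewer or more summits and starts that each setting admits.

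No paired analysis was possible because both libraries belong to 1 group. With 2 libraries, unknown depth and summits that differed by a median of 25 bp between replicates, small shifts in position or rank are not resolved.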
